A study of Homo sapiens with 6 samples.

Results

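The 9 genes described here encode parts of the MHC class I antigen presentation pathway. They were chosen by name, as the rows of the deposited table whose symbol is HLA-B, HLA-C, HLA-E, B2M, TAP1, TAP2, TAPBP, PSMB8 or PSMB9, and all 9 were found among 26184 genes and loci. RNA was sequenced from 3 samples of the untreated parent line Huh7 P, a human hepatocellular carcinoma cell line, and from 3 samples of Huh7 LR, the line derived from it under lenvatinib, a multikinase inhibitor, at a dose raised from 1 μM to 20 μM over about 10 months. Both groups are labelled as wild type in genotype. Each group is 1 line, so a p-value covers the spread between samples of that line, and the number of clones in Huh7 LR is not given in the sources used here. By the study's methods, Huh7 LR was kept in medium with 20 μM lenvatinib once derived. The reads counted on genes totalled 62738937 to 71427573 per library. Levels are in CPM, counts scaled to a common library size with edgeR's TMM factors. A gene at 0 could still have had 3 counts, or 0.042 to 0.049 CPM depending on the library, for counting error only. The hepatocyte markers ALB, AFP, APOA1, TTR, SERPINA1, APOH and HNF4A were all expressed, with a summed level of 35900 to 45100 CPM in the Huh7 P libraries and 46200 to 48100 CPM in the Huh7 LR libraries. Of these 7 markers, 4 (57.1%) were called higher in Huh7 LR by edgeR's quasi-likelihood test, against 23.3% of all genes and loci tested. These 4 had log2 fold changes of 0.48 for APOA1, 0.68 for TTR, 0.74 for ALB and 1.46 for APOH. The part of the markers in the results below was not tested. Library totals overlapped between the lines.

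Class I molecules show the immune system what a cell is making. The proteasome cuts proteins into peptides, and under interferon the constitutive subunits PSMB5, PSMB6 and PSMB7 can be exchanged for the immune subunits PSMB8, PSMB9 and PSMB10. The peptides are carried into the endoplasmic reticulum by the TAP1 and TAP2 transporter, which tapasin (TAPBP) bridges to an empty class I molecule. That molecule is a heavy chain, such as HLA-B, HLA-C or HLA-E, paired with the shared light chain beta-2 microglobulin (B2M). Transcription of these genes is driven by NLRC5 and by interferon-responsive factors such as IRF1. Hepatocytes carry little class I at rest and raise it under interferon.

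B2M lies on chromosome 15 (GENCODE release 29 on GRCh38, 44711487 to 44718877). The other 8 are on chromosome 6. TAP2 (32821833 to 32838780), PSMB8 (32840717 to 32844703), PSMB9 (32844136 to 32859585) and TAP1 (32845209 to 32853978) form a block, and TAPBP (33299694 to 33314387) lies beyond it. The heavy chains are at 30489467 to 30494205 for HLA-E, 31268749 to 31272130 for HLA-C and 31269491 to 31357188 for HLA-B. TAP1 and PSMB9 are transcribed away from each other from RefSeq starts 488 bases apart.

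The promoters are shown for the members whose window holds an interferon-stimulated response element (ISRE), since these genes are known for their response to interferon. RefSeq promoter windows (GRCh38.p14, 250 bases before to 50 bases after a start) were found for 8 of the 9 members, and HLA-E is missing from the table. The ISRE motif (GAAA, any 2 bases, GAAA) was searched on both strands and was present in 5 of these 8 genes, which have 10 windows in all, against 3.57% of the 35116 windows in the table. The windows below run 5′ to 3′ on the strand of the gene, and the capitals mark each match. They are B2M (chr15:44711267-44711566, plus strand), TAP1 (chr6:32853655-32853954), TAPBP (chr6:33314029-33314328), TAP2 (chr6:32838690-32838989) and PSMB8 (chr6:32843998-32844297), the last 4 on the minus strand.
B2M: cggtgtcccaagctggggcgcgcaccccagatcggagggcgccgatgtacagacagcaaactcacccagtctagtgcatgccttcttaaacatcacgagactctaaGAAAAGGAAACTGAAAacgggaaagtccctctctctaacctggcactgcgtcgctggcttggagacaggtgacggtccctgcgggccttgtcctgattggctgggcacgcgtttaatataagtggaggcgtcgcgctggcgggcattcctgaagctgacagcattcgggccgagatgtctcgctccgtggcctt
TAP1: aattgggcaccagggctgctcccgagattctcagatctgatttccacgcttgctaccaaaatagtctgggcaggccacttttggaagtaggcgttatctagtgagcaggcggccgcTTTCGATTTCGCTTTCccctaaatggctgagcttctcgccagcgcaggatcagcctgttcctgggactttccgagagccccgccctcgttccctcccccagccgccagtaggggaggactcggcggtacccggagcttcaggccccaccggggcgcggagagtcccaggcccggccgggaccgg
TAPBP: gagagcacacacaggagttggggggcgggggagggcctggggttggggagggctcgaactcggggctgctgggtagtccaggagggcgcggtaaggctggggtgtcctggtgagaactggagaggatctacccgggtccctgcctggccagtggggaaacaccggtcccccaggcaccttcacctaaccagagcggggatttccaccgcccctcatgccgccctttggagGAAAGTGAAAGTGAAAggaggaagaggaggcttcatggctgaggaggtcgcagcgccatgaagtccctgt
TAP2: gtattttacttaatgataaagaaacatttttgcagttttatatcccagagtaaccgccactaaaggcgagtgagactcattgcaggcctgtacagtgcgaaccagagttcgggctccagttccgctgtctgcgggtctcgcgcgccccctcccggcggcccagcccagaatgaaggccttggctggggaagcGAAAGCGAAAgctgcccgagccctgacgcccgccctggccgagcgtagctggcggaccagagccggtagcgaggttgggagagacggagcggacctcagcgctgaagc
PSMB8: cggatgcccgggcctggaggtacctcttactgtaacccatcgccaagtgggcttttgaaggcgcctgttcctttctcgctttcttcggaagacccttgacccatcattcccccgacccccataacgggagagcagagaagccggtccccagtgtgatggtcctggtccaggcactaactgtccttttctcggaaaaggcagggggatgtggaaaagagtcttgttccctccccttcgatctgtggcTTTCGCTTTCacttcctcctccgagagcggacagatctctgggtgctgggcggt
In B2M, TAP1 and TAPBP there are 2 overlapping matches each, so that the capitals cover 16 bases. The first match began 144 bases before the start in B2M, 134 in TAP1 and 20 in TAPBP. TAP2 had 1 match, 58 bases before its start, and PSMB8 had 1 match, 4 bases before the start of the window shown. The windows of HLA-B, HLA-C and PSMB9 held no match to these letters. The gamma-activated sequence TTCNNNGAA was found in a window of TAP1 and one of PSMB8, against 7.66% of all windows. The element TGACGTCA was in none of the members' windows, against 1.85% of all. The short Y box ATTGG was in windows of 5 members and the kappaB motif (GGG, any 5 bases, CC), part of the class I enhancer, in those of 6, against 34.6% and 58.7% of all windows.

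In Huh7 LR, 5 of the 9 members were higher than in Huh7 P, 1 did not pass the test and 3 had too few counts to test. The call threshold was 0.05 on the Benjamini-Hochberg adjusted p of edgeR's quasi-likelihood test. It was applied to all 17531 genes and loci tested, of which 23.3% were called higher and 22.4% lower. TAP1, HLA-E, B2M and TAPBP were higher, and so was HLA-C, which passed the filter on low counts through its Huh7 LR libraries and lost the call in 8 of 11 alternatives. Without HLA-C, 4 members were higher, as in DESeq2 and without the filter. No member was called lower by edgeR, and 0 were lower at an unadjusted p under 0.05 or by DESeq2. For each of the 5, the lowest Huh7 LR value exceeded the highest Huh7 P value, while 55.9% of the genes and loci tested had lines that were apart in either direction. Under a stricter rule with the level and fold of the study's methods (0.001, here on the adjusted p, and 2-fold), 1 member was called higher, TAP1, against 4.43% of all genes and loci. In a bulk sample, fewer cells expressing a gene and less RNA per cell cannot be told apart.

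**Figure D1:**
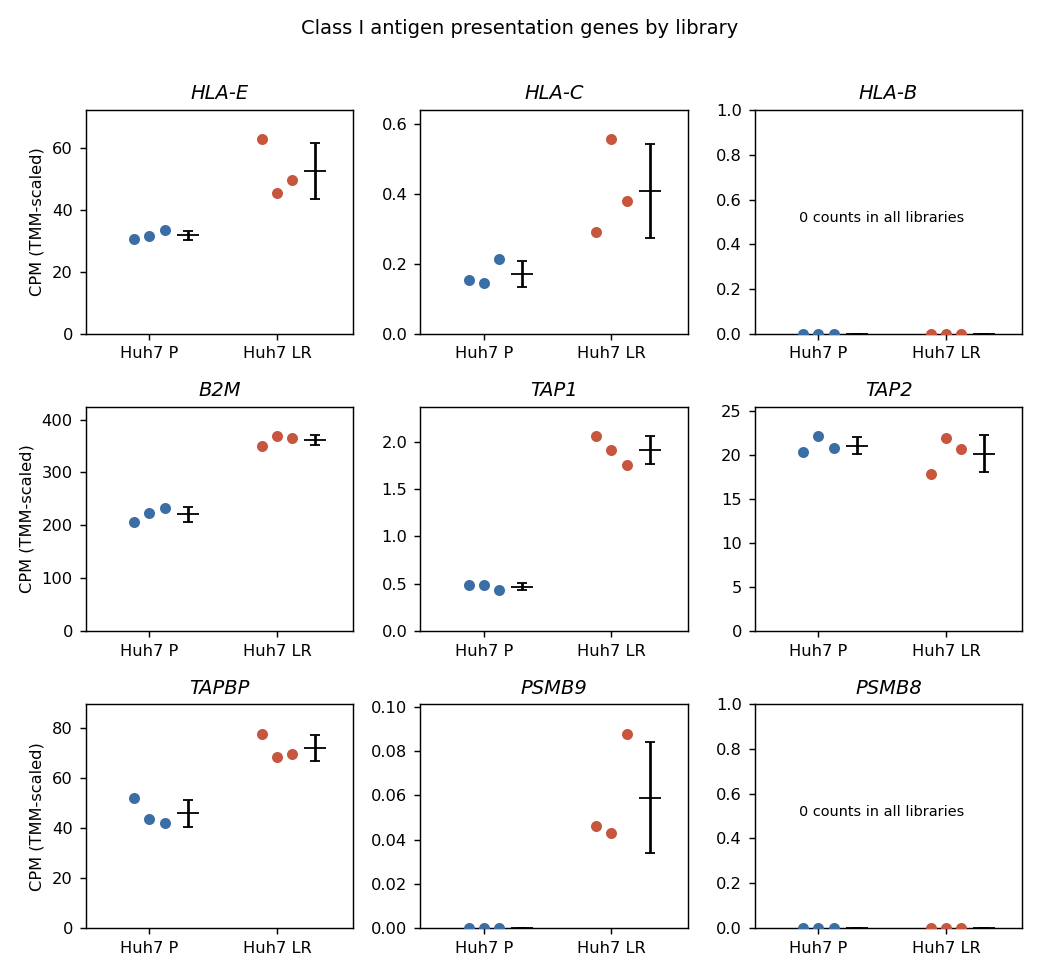
Level of each of the 9 members in each library, in TMM-scaled CPM on linear axes that start at 0 and differ between panels. Points are libraries (3 Huh7 P, 3 Huh7 LR), and the black mark is the mean with its SD. TAP1 lies near 0.5 CPM in Huh7 P and near 2 CPM in Huh7 LR, TAP2 overlaps between the lines, and HLA-B and PSMB8 are at 0 in all 6 libraries.

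The light chain was by far the most abundant member. B2M (ENSG00000166710) stood at 205.5, 223.4 and 233.1 CPM in the Huh7 P libraries and at 350.6, 368 and 365.6 CPM in the Huh7 LR libraries. The lines were well apart, with a gap larger than the spread within either. Means are given ± SD over the 3 libraries of a line (n = 3) throughout. The mean rose from 221 ± 14 CPM to 361 ± 9.4 CPM, which is 1.64-fold. The log2 fold change was 0.71 (standard error, SE, 0.07, edgeR adjusted p = 1.89e-05).

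HLA-E, a heavy chain that presents leader peptides to natural killer cells, was the most abundant heavy chain among the members per transcript length. HLA-E (ENSG00000204592) had 30.7, 31.5 and 33.5 CPM in Huh7 P and 62.8, 45.4 and 49.8 CPM in Huh7 LR. Replicate 1 was the highest of the Huh7 LR libraries, while the Huh7 P libraries lay close together. The mean rose from 31.9 ± 1.41 CPM to 52.7 ± 9.06 CPM, a log2 fold change of 0.72 (SE 0.11, edgeR adjusted p = 0.000322). Without Huh7 LR replicate 1 the log2 fold change was 0.58.

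Of HLA-C and HLA-B, which present peptides to cytotoxic T cells, HLA-C was barely detected and HLA-B was listed at 0. HLA-C (ENSG00000204525) was counted 11, 9 and 14 times in Huh7 P, against 19, 39 and 26 times in Huh7 LR. The lines did not overlap, but the spread in Huh7 LR was wide. The log2 fold change was 1.25 (SE 0.44, edgeR adjusted p = 0.0356), and over 11 alternatives the adjusted p lay between 0.0317 and 0.154, with the call lost in 8 of them. It was lost when any library other than Huh7 LR replicate 1 was left out. A transfer of reads from other, similar heavy chain genes was not tested. HLA-B (ENSG00000234745) was listed with 0 counts in all 6 libraries. Its annotated extent covers most of HLA-C on the same strand, with 35 shared exon bases, and heavy chain alleles vary strongly between people. How the counting treated these 2 properties was not tested. Counted as one row, HLA-B and HLA-C had the values of HLA-C alone by construction, since HLA-B was at 0. This sum therefore does not test how reads were assigned to the 2 genes.

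Of the 2 subunits of the peptide transporter, TAP1 was called higher and TAP2 was not. TAP1 (ENSG00000168394) was counted 35, 30 and 28 times in Huh7 P, against 134, 134 and 120 times in Huh7 LR. The lines were widely apart at a low level. The mean rose from 0.467 ± 0.0339 CPM to 1.91 ± 0.148 CPM, which is 4.07-fold, and the log2 fold change was 2.03 (SE 0.22, edgeR adjusted p = 3.49e-05). Its FPKM values, which are reads per transcript length and library size, gave log2 fold changes of 1.52 with 0.1 added and of 0.48 with 1 added, since the level lies under 1 FPKM.

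TAP2 (ENSG00000204267) had 20.3, 22.1 and 20.8 CPM in Huh7 P and 17.8, 21.9 and 20.7 CPM in Huh7 LR. The libraries of the lines overlapped. Its log2 fold change was -0.07 (SE 0.10, edgeR adjusted p = 0.613), and 0.01 without Huh7 LR replicate 1. An overlapping gene, AL669918.1, shares 32.3% of the exon bases of TAP2 on the same strand and was listed with 28, 10 and 0 counts in Huh7 P and with 6, 17 and 18 in Huh7 LR, few beside the 1163 to 1535 counts of TAP2. Within a library, TAP1 amounted to 4.6%, 4.16% and 3.93% of TAP2 in Huh7 P, against 22.0%, 16.7% and 16.2% in Huh7 LR, as a ratio of FPKM values. The log2 difference of this ratio was 2.10 (two-sided exact permutation test, p = 0.1, adjusted p = 0.15 over the 3 ratios tested), and with 3 libraries per line no p below 0.1 can be reached. In both lines TAP1 was the less abundant subunit per length.

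Tapasin, which holds the class I molecule at the transporter, was higher in Huh7 LR. TAPBP (ENSG00000231925) had 52.1, 43.7 and 41.9 CPM in Huh7 P and 77.8, 68.4 and 69.6 CPM in Huh7 LR. Replicate 1 was the highest in each line, and the lines did not overlap. The mean rose from 45.9 ± 5.43 CPM to 71.9 ± 5.11 CPM, a log2 fold change of 0.65 (SE 0.09, edgeR adjusted p = 0.000214). Of the promoter windows shown above, those of B2M, TAPBP and TAP1 belong to genes called higher and that of TAP2 to a gene not called. That of PSMB8 belongs to a gene at 0 in all 6 libraries, while HLA-C was called without a match.

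The immune subunits PSMB8 and PSMB9 of the proteasome were at or near 0. PSMB8 (ENSG00000204264) was listed with 0 counts in all 6 libraries. PSMB9 (ENSG00000240065) was listed with 0 counts in the Huh7 P libraries and with 3, 3 and 6 counts in the Huh7 LR libraries. These 12 counts lie at or just above the 3 counts per library that a count of 0 allows, so that no fold is given. Fitted without the filter on low counts, PSMB9 had an adjusted p of 0.0975 in edgeR and 0.115 in DESeq2, and 0.0327 in limma on log2(FPKM + 0.1). PSMB8 and PSMB9 share 139 exon bases on opposite strands, and the strand setting of the counting is not given in the sources used here. None of 80 ribosomal protein genes was at 0 in all libraries, but 76 of them were strongly counted in every library. They therefore cannot show whether a weakly expressed or variable gene was lost in counting. Of all 26184 genes and loci, 3184 were at 0 in all libraries.

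The constitutive subunits whose place they take were abundant and somewhat lower in Huh7 LR. The level of PSMB5 was 175 ± 2.06 FPKM in Huh7 P and 150 ± 11.7 FPKM in Huh7 LR. PSMB6 fell from 191 ± 3.77 FPKM to 139 ± 12.4 FPKM, with a log2 fold change of counts of -0.49 (edgeR adjusted p = 0.000513). PSMB7 had a log2 fold change of -0.39 (edgeR adjusted p = 0.001), and PSMB5 one of -0.26 (edgeR adjusted p = 0.0211), which was lost in 5 of 16 alternatives, with adjusted p-values from 0.00223 to 0.0827. Of the 14 subunits of the constitutive core, 9 (64.3%) were lower, 1 (7.14%) was higher and 4 did not pass the test. Among all genes and loci tested, 22.4% were lower and 23.3% higher. The median log2 fold change of the core was -0.30, against 0 over all genes and loci tested. PSMB10, the third immune subunit, was expressed at 5.76 ± 0.622 FPKM in Huh7 P and 4.74 ± 0.921 FPKM in Huh7 LR and did not pass the test (log2 fold change -0.31, edgeR adjusted p = 0.135). Its ratio to PSMB7 was 2.71% ± 0.332 in Huh7 P and 2.86% ± 0.495 in Huh7 LR (two-sided exact permutation test, p = 0.6). For PSMB9 the ratio to PSMB6 was at most 0.0765% in any library, and for PSMB8 the ratio to PSMB5 was 0, so that neither ratio was tested.

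**Figure D2:**
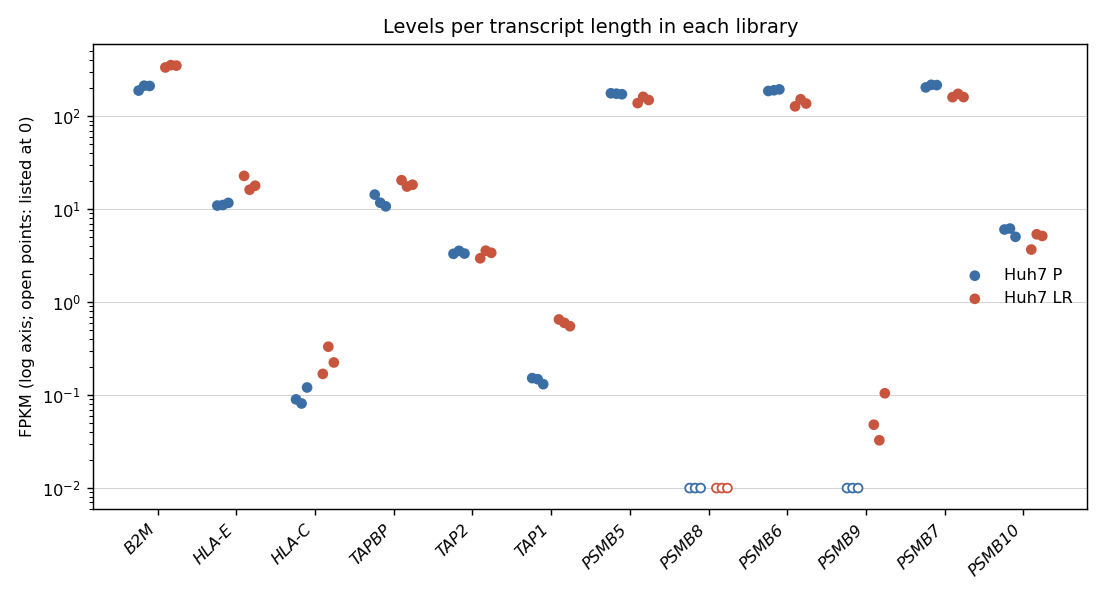
Level per transcript length of members and of the genes they are set against, in FPKM on a log axis. Each point is a library of Huh7 P (blue) or Huh7 LR (red), and open points mark libraries listed at 0, drawn at the foot of the axis. B2M and the constitutive subunits PSMB5, PSMB6 and PSMB7 lie above 100 FPKM, while HLA-C, TAP1 and PSMB9 stay under 1 FPKM in every library and PSMB8 is at 0.

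Set side by side per transcript length, the members covered more than 3 orders of magnitude. In Huh7 P the order was B2M (205 ± 13.6 FPKM), TAPBP (12.3 ± 1.87 FPKM), HLA-E (11.3 ± 0.399 FPKM), TAP2 (3.40 ± 0.14 FPKM), TAP1 (0.144 ± 0.0113 FPKM) and HLA-C (0.0973 ± 0.0208 FPKM), each a mean with its SD over 3 libraries. PSMB9, PSMB8 and HLA-B followed at 0. In Huh7 LR, HLA-E (19.0 ± 3.43 FPKM) and TAPBP (18.8 ± 1.55 FPKM) changed places, and in neither line did these neighbours differ beyond their spread. The other neighbours above 0 kept their order and did not overlap.

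Of 25 further genes of the class I pathway, 9 were higher, 5 were lower, 8 did not pass the test and 3 had too few counts. Of the 22 tested, 40.9% were higher and 22.7% lower, beside 23.3% and 22.4% of all genes and loci. Their median log2 fold change was 0.09, against 0 over all genes and loci tested. Under the stricter rule, 3 were higher, NLRC5 and IRF1 among them, and 1 was lower (MICB), and 1.78% of all genes and loci were lower by that rule. The largest fold change of the list was that of a regulator.

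NLRC5, the transactivator that assembles on class I promoters, was counted 28, 33 and 23 times in Huh7 P, against 147, 144 and 143 times in Huh7 LR. The lines were widely apart at a low level. The mean went from 0.426 ± 0.0965 CPM to 2.14 ± 0.106 CPM, a log2 fold change of 2.33 (SE 0.24, edgeR adjusted p = 2.16e-05). IRF1, a transcription factor induced by interferon gamma, had 4.32, 3.91 and 4.19 CPM in Huh7 P and 9.33, 11.5 and 11.5 CPM in Huh7 LR (log2 fold change 1.38, SE 0.13, edgeR adjusted p = 1.06e-05). For both regulators no Huh7 LR library overlapped with Huh7 P.

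Of the peptide trimming and loading factors, ERAP2, an aminopeptidase of the endoplasmic reticulum, rose from 0.798 ± 0.0713 CPM to 1.59 ± 0.0988 CPM. Its log2 fold change was 1.00 (SE 0.21, edgeR adjusted p = 0.00286). TAPBPL, a tapasin-related peptide editor, moved the other way, with a log2 fold change of -0.51 (SE 0.17, edgeR adjusted p = 0.0298), and lost the call in 5 of 16 alternatives, with adjusted p-values from 0.0286 to 0.107. MICB, a stress ligand related to class I that activates natural killer cells, fell from 18.2 ± 0.642 CPM to 6.78 ± 0.88 CPM, a log2 fold change of -1.43 (SE 0.11, edgeR adjusted p = 4.25e-06). HLA-G and CD1D were listed at 0 in all libraries, and HLA-F had 3 counts in 1 Huh7 LR library.

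**Figure D3:**
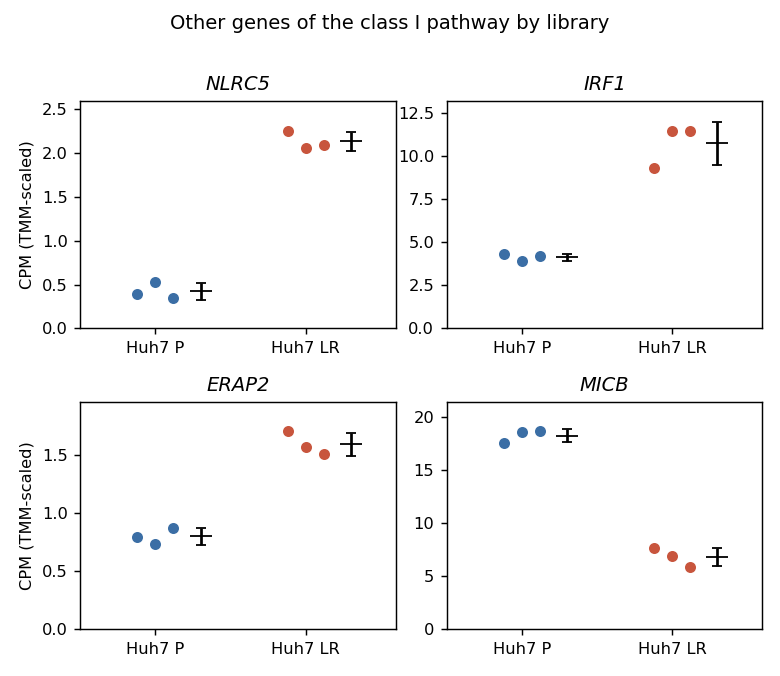
Level of 4 further genes of the class I pathway in each library, in TMM-scaled CPM on linear axes that start at 0 and differ between panels. Points are libraries, and the black mark is the mean with its SD (n = 3). NLRC5, IRF1 and ERAP2 are higher and MICB is lower in all 3 Huh7 LR libraries.

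**Figure D4:**
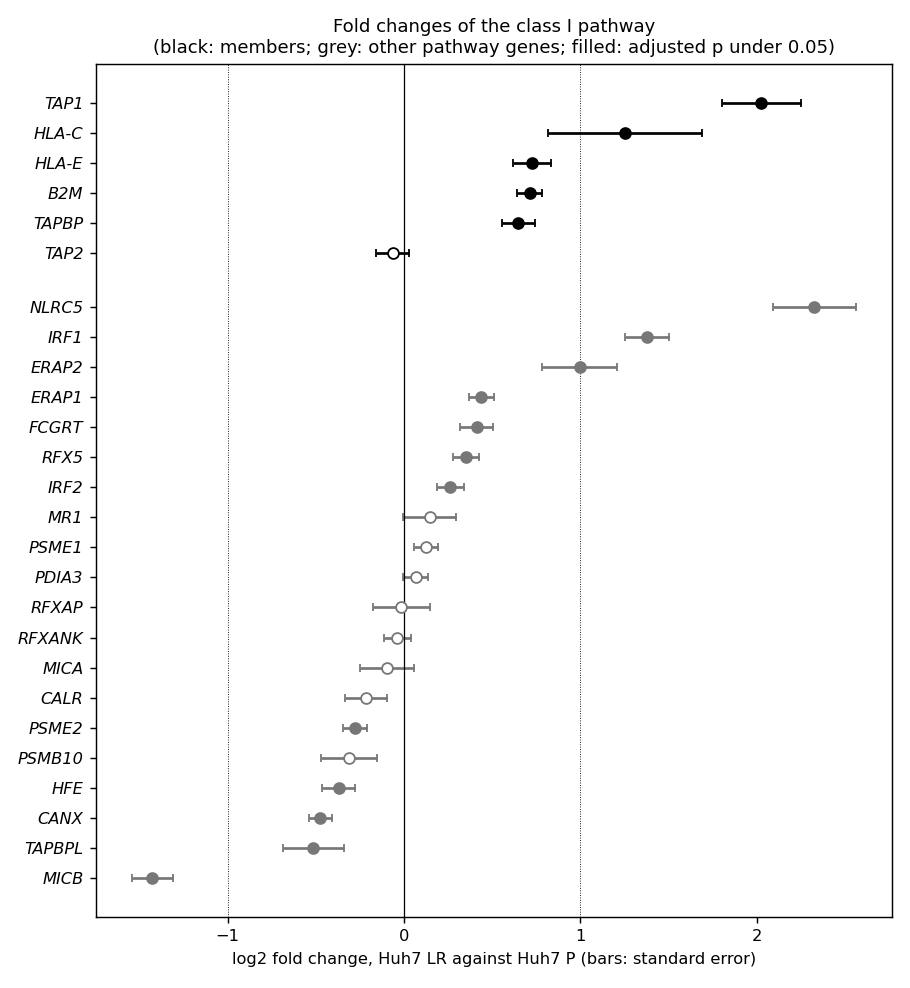
Log2 fold change of Huh7 LR against Huh7 P with its standard error for the 6 members (black) and for 20 of the 22 further class I pathway genes with enough counts to test (grey). Filled points passed an adjusted p of 0.05, and the dotted lines mark a change of 2-fold. TAP1 lies highest among the members, TAP2 lies at -0.07, and the further genes run from MICB at -1.43 to NLRC5 at 2.33.

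Of 14 genes of interferon signalling, which include the receptors and factors of both the gamma and the type I pathway, 6 were higher, 2 were lower and 6 did not pass the test, with a median log2 fold change of 0.20. This is 42.9% higher and 14.3% lower, beside the same 23.3% and 22.4%. Besides IRF1, STAT2 had a log2 fold change of 0.60 (edgeR adjusted p = 4.26e-05). The 2 lower genes encode brakes of this signalling. PTPN2, a phosphatase, had a log2 fold change of -0.32 (edgeR adjusted p = 0.00713), and SOCS1, an inhibitor of JAK kinases, one of -1.28 (edgeR adjusted p = 0.0249) from 1.05 ± 0.194 CPM, a call lost in 3 of 14 alternatives, with adjusted p-values from 0.0174 to 0.0826. SOCS3, another such inhibitor, was higher with a log2 fold change of 0.54 (edgeR adjusted p = 0.0357), lost in 7 of 16 alternatives with adjusted p-values from 0.00585 to 0.121.

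Of 38 interferon-stimulated genes, 14 were higher, 4 were lower, 11 did not pass the test and 9 had too few counts. Of the 29 tested, 48.3% were higher and 13.8% lower, against 23.3% and 22.4% of all genes and loci, and their median log2 fold change was 0.52. IFIH1, a sensor of double-stranded RNA, had a log2 fold change of 1.72 (SE 0.12, edgeR adjusted p = 1.74e-06). HERC5, the ligase for ISG15, had one of 2.13 (edgeR adjusted p = 0.000195) and IFI6 one of 2.21 (edgeR adjusted p = 2.09e-05). The 4 lower genes, named after their values were seen, had log2 fold changes of -0.73 for OAS3, -0.59 for GBP2, -0.56 for OAS1 and -0.33 for MX2 (edgeR adjusted p = 0.000241, 0.000717, 0.00832 and 0.00343). IFITM2 had 0 counts in Huh7 P and 14, 18 and 21 counts in Huh7 LR, so that it passed the filter on low counts through its Huh7 LR libraries, and it is 1 of the 14 higher genes. Of these genes, 5 were at 0 in all libraries, as HLA-B and PSMB8 were.

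The position of the members was examined through their neighbours. On chromosome 6, 22 other genes with enough counts lay within 100 kb of a member, of which 7 were higher, 7 were lower and 8 did not pass the test, with a median log2 fold change of -0.01. Over all genes and loci tested, 23.3% were higher and 22.4% lower. Around TAPBP, 5 of 14 neighbours were higher and 7 were lower. The 3 neighbours of HLA-E did not pass the test, with log2 fold changes of -0.13 to 0.09. At 87.1 kb from the TAP1 start, HLA-DMB, which encodes a chain of the class II peptide exchanger, had a log2 fold change of 2.05 (SE 0.29, edgeR adjusted p = 0.000198).

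**Figure D5:**
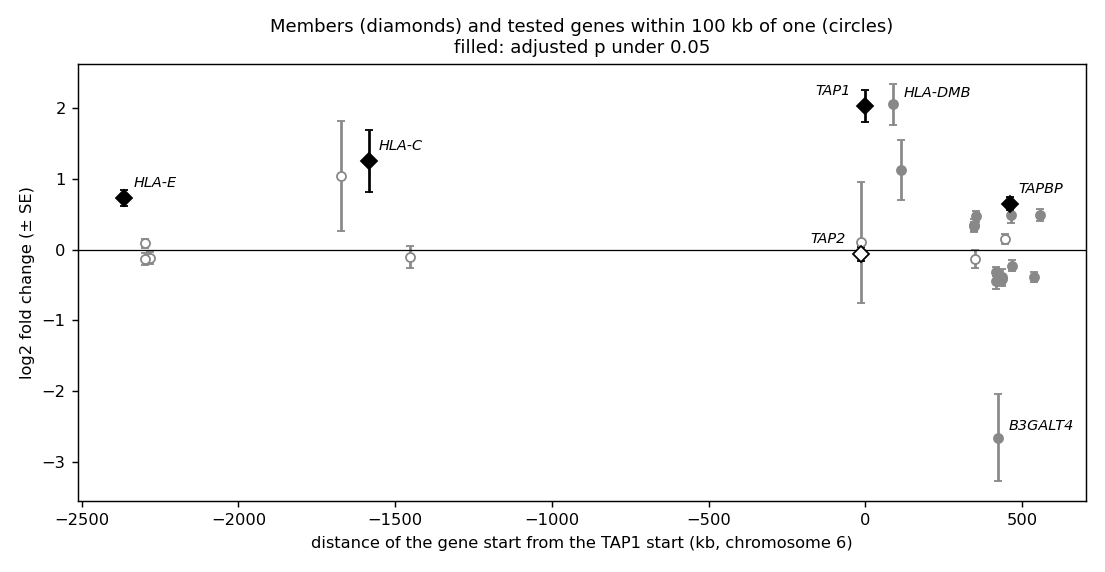
Log2 fold change with its standard error of the tested members on chromosome 6 (diamonds) and of 22 tested genes within 100 kb of a member (circles), by the distance of the gene start from the TAP1 start in kb. Filled symbols passed an adjusted p of 0.05. TAP1 and HLA-DMB lie near 2, and the neighbours of HLA-E and TAPBP scatter around 0, apart from B3GALT4 at -2.65.

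By likeness of pattern over the 6 libraries, the 3 annotated genes closest to TAP1, the member with the largest fold change, were KREMEN1, APC2 and CYB5R1, with Pearson's r of 0.9997, 0.9991 and 0.999 on log2 CPM. These values describe 6 libraries in 2 groups. Of the 14052 annotated genes compared, 1507 had an r above 0.95. The log2 fold changes of the 3 genes were 1.29, 1.16 and 0.42.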

How the data were processed

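Poly(A) RNA of 3 Huh7 P and 3 Huh7 LR samples was sequenced. The authors deposited 1 table with raw read counts and FPKM values for each gene and library. The submitters' processing notes name TopHat2, Cufflinks, DESeq and the mouse build mm10, and the labels describe extraction from an insect, whereas the 19974 gene identifiers are human. The counting program and its strand setting are not given in the sources used here. A further 6210 loci without an annotated gene were kept in the fit, and 34 lines of annotation text were left out.

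The count analysis ran in edgeR 4.0.16 under R 4.3.3: filterByExpr (minimum count 10, minimum total 15), TMM (factors 0.977 to 1.03) and the quasi-likelihood test over 17531 genes and loci with Benjamini-Hochberg adjustment. The standard error was derived from the fold change and the F statistic. Precision follows from 62738937 to 71427573 counts per library and a biological coefficient of variation of 12.7%. An exact permutation test served for ratios of FPKM values. Alternatives used DESeq2 1.42.0, limma 3.58.1 on log2(FPKM + 0.1) and log2(FPKM + 1), other filters, summed heavy chains, a replicate block and each library left out. The edgeR, DESeq2 and limma fits were tested on simulated data. Coordinates are from GENCODE release 29 and promoters from RefSeq (GRCh38.p14).

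Named were all members and, from each further list, the subunits of the ratios, transactivators such as NLRC5 and IRF1, and at most the 6 largest of the called changes, some of which, like 1 of the 3 ratios tested, are not reported here. Further genes (HLA-F, HLA-G, CD1D, HLA-DRA, HLA-DRB1, CIITA, CD74, COL1A2, COL3A1, LUM, AL669918.1 and B3GALT4) were named after their values were seen. Members and lists were chosen with earlier results of these data known.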

Additional observations from a re-analysis of the deposited data

How the results depend on the processing

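B2M, HLA-E, TAP1 and TAPBP were called higher at 0.05 under every alternative run for them, with log2 fold changes of 0.66 to 0.76, 0.58 to 0.83, 0.48 to 2.08 and 0.58 to 0.75. The number of members higher was 4 to 5 with each library left out and 1 at an adjusted p under 0.001 and 2-fold. It was 4 in DESeq2, without the filter, with at least 10 counts in every library, with the heavy chains summed and in both filtered limma fits, and 6 in limma on unfiltered log2(FPKM + 0.1). The further class I pathway genes were 8 to 9 higher and 4 to 6 lower with each library left out, 3 higher and 1 lower at that stricter rule, and 3 lower in limma on unfiltered log2(FPKM + 0.1). The log2 fold change of TAP2 was -0.12 to 0.01 with each library left out, and 0.01 without Huh7 LR replicate 1. The cause of these changes was not tested, except that the stricter rule admits fewer genes by construction. The TAP1 to TAP2 ratio had log2 differences of 1.96 to 2.18 and that of PSMB10 to PSMB7 -0.03 to 0.22. Over single genes, 598 of 644 values kept direction and side of the threshold, 45 lost the call and 1 changed direction. The deviations of samples with the same replicate number had weak positive correlations (0.0773, 0.149 and 0.0426). Each Huh7 LR library correlated best with the Huh7 P library of its number. Huh7 P replicate 3, however, correlated best with Huh7 LR replicate 1 (0.0763). Whether samples of the same number share a batch was not tested. With the replicate number as a block, 4 members were higher and HLA-C was not (log2 fold change 1.22, edgeR adjusted p = 0.0681). Depth limits HLA-C and PSMB9, which had under 40 counts in every library. HLA-B and PSMB8 were at 0 in all 6 libraries, and silence and loss in counting cannot be told apart.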

Other observations

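Of 10 class II genes, 6 were at 0 in all 6 libraries, HLA-DRA and HLA-DRB1 among them, beside 3184 of all 26184 genes and loci. For these 6 class II rows silence and loss in counting cannot be told apart. Of the 4 class II genes tested, 2 (50%) were called higher, beside 23.3% of all genes and loci tested. These 2, HLA-DMB and HLA-DMA, encode the chains of the peptide exchanger HLA-DM. HLA-DMB rose from 0.486 ± 0.156 CPM to 2.02 ± 0.419 CPM, a log2 fold change of 2.05 (edgeR adjusted p = 0.000198). HLA-DMA had a log2 fold change of 1.12 (edgeR adjusted p = 0.0472) and lost the call in 9 of 13 alternatives, with adjusted p-values from 0.0461 to 0.153. It was counted 19, 12 and 8 times in Huh7 P, against 24, 31 and 32 times in Huh7 LR, and passed the filter on low counts through its Huh7 LR libraries. CIITA, the class II transactivator, had a log2 fold change of 0.02 and CD74, the invariant chain, one of 0.52, and neither passed the test.

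Among markers of other cell types, LYZ and PECAM1 were expressed and most others were low or at 0. Of 8 leukocyte markers, 3 were at 0 in all libraries, MS4A1 and TYROBP among them, 2 had enough counts to test, and the summed level was 62 to 67.6 CPM in Huh7 P and 9.86 to 13.8 CPM in Huh7 LR, mostly LYZ, which fell (log2 fold change -2.79, edgeR adjusted p = 4e-08). Of 6 fibroblast markers, DCN was at 0 in all libraries. The 2 with enough counts to test, COL1A1 and PDGFRB, were higher, beside 23.3% of all genes and loci tested. Over the 3 libraries of a line, COL1A2 was counted 16 times in Huh7 P against 3 times in Huh7 LR, COL3A1 5 against 31 times and LUM 2 against 0 times. The list had a summed level of 2.16 to 2.28 CPM in Huh7 P and 5.02 to 8.02 CPM in Huh7 LR. Of 3 endothelial markers, CDH5 was at 0 in all libraries. The 2 tested, PECAM1 (log2 fold change 0.64) and VWF (0 to 0.122 CPM in Huh7 P, 0.292 to 0.371 CPM in Huh7 LR), were higher, beside the same 23.3%. VWF was counted 0, 0 and 8 times in Huh7 P, against 19, 26 and 21 times in Huh7 LR, and also passed that filter through its Huh7 LR libraries. The VWF call was lost in 5 of 13 alternatives, with edgeR, DESeq2 or limma adjusted p-values from 0.00188 to 0.0614. The part of these markers in the results on the class I genes was not tested.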
